A study of Mus musculus with 17 samples.

Results

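The set held 54 genes of mitosis and chromosome segregation, taken by name from the G2/M, spindle, kinetochore and condensin genes, out of 50600 genes counted in each library. All 54 were found under 1 Ensembl identifier each, all 54 passed the filter on low counts, and the lowest count of any of them in any library was 117. They were measured by RNA sequencing in 17 mouse libraries, 14 of them from tumors of a rhabdoid tumor model and 3 from healthy brain. Rhabdoid tumors are aggressive cancers of young children that have lost SMARCB1, part of the SWI/SNF machinery that remodels chromatin. Every animal was of the C57BL/6J strain. The brains were labelled WT (wild type, n = 3) and all tumors SMARCB1 -/-. There were 4 extracranial tumors, 4 CNS tumors labelled Myc, 3 CNS tumors labelled SHH and 3 syngeneic grafts, which had been placed in the flank of a host. The ages of the animals, the allele and driver used to delete the gene, the site of the extracranial tumors, the source of the grafted cells and any pooling of animals are not stated in the sources used here. The series design counts separate tumors and biological replicates of brain, and a p-value here reads only the variation among the 17 libraries. Library numbers follow the labels.

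Mitosis is driven by CDK1 bound to cyclins A and B and by the Polo and Aurora kinases. The spindle checkpoint holds back the anaphase-promoting complex until every kinetochore is attached, after which securin and cyclin B are destroyed, separase opens cohesin and the cell divides. Most of these genes are transcribed only late in the cell cycle, because the DREAM complex represses them in resting cells and the MuvB core, with B-MYB and then FOXM1, activates them before mitosis. DREAM and MuvB reach many of these promoters through the cell cycle homology region, a motif of the form TTTGAA or TTCGAA, and NF-Y reaches them through CCAAT boxes. In the brain such transcripts are known from dividing progenitors and are scarce in neurons.

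The promoters of 7 members are shown because the genes share a transcription program and the 54 moved largely together. RefSeq's promoter table (GRCm38.p6, 250 bases before to 50 after an annotated start) held 48 promoters of 45 members, and Spc24, Smc4, Kif20a, Aurkb, Ccna2, Incenp, Foxm1, Cdc25c and Tpx2 were not matched in it. Each sequence runs 5′ to 3′ on the gene's own strand, and capitals mark CCAAT or the cell cycle homology motif, on either strand, so that a match on the other strand reads as ATTGG or TTCAAA. The windows were chr10:69352863-69353162 for Cdk1 (minus strand), chr13:100786437-100786736 for Ccnb1 (minus), chr9:70421505-70421804 for Ccnb2 (minus), chr7:122159185-122159484 for Plk1 (plus), chr11:99024140-99024439 for Top2a (minus), chr7:131560120-131560419 for the upstream of the starts of Bub3 (plus) and chr19:34922108-34922407 for Kif20b (plus). Cdk1 and Ccnb2 show the usual arrangement of CCAAT boxes before a cell cycle homology motif near the start, Ccnb1 has CCAAT boxes alone, Kif20b has the homology motif alone, Top2a has the most matches, and Bub3, whose other annotated start has an overlapping window that is not printed, had the smallest fold change of the called members.
Cdk1: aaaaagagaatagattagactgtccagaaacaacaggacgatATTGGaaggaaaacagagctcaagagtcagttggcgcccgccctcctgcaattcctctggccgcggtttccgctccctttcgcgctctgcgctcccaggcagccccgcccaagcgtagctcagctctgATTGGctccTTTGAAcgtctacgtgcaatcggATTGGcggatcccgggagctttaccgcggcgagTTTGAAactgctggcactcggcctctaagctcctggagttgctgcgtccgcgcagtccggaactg
Ccnb1: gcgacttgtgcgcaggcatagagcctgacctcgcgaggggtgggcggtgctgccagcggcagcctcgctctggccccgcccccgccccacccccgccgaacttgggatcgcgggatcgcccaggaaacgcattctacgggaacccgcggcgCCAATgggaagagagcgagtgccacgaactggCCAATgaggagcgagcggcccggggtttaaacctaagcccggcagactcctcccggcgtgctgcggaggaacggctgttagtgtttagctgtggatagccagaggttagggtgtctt
Ccnb2: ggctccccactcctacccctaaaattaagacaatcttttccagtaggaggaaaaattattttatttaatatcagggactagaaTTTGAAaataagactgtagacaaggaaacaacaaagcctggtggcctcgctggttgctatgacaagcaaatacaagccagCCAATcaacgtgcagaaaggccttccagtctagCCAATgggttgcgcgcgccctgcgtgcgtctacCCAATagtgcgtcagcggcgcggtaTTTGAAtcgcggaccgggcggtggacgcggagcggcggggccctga
Plk1: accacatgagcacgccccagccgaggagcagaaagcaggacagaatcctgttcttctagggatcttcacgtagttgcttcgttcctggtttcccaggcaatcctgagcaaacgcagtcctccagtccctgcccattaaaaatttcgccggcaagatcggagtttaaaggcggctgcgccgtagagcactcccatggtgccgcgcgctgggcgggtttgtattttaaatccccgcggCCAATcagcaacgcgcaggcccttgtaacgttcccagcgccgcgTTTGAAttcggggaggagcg
Top2a: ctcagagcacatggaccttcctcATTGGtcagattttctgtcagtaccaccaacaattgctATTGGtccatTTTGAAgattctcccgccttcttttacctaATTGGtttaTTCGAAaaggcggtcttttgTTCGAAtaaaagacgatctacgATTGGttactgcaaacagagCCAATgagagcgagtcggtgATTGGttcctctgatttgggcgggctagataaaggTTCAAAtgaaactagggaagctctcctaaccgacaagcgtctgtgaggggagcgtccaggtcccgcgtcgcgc
Bub3: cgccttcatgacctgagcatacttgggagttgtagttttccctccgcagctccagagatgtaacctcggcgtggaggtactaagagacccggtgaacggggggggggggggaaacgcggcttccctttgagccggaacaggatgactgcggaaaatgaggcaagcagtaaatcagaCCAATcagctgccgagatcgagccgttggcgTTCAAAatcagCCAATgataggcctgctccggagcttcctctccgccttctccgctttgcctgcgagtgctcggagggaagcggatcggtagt
Kif20b: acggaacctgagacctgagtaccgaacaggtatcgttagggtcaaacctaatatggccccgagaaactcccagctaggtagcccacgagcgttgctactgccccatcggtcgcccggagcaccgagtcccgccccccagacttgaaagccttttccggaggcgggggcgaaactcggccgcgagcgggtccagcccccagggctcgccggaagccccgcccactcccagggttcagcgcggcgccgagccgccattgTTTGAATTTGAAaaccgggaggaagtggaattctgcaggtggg

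CCAAT, read on both strands, occurred in 36 of the 48 member promoters and in 37.4% of the 32851 promoters of all 27025 genes in the table. At least 2 copies stood in 24 of the 48 member promoters and in 11.7% of all. TTTGAA or TTCGAA, on both strands, occurred in 79.2% of member promoters and 19.2% of all, and between 60 bases before and 50 after the start in 70.8% and 5.90%. Both motifs stood together in 68.8% of member promoters against 7.52% of all. Neither was found in 14.6% of member promoters against 50.9% of all. CCAAT and the other motif can share an end base where they adjoin, and TTCGAA reads the same on both strands. A match describes the letters in this window only. Top2a held 6 CCAAT and 4 TTTGAA or TTCGAA matches and Cdk1 3 and 2, while the Bub3 window held 2 and 1.

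**Figure D1:**
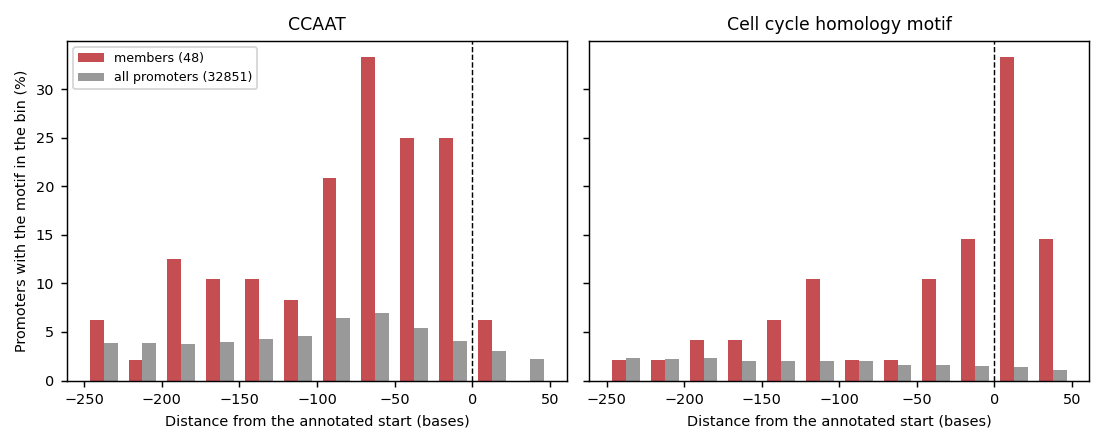
Share of promoters (%) with each motif in bins of distance from the annotated start, for the 48 promoters of members (red) and all 32851 promoters (grey). CCAAT peaked before the start in both sets, at 33.3% and 6.99% of promoters, and the cell cycle homology motif just after the start in members, at 33.3% against 1.43% of all promoters.

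Total counts ran from 18685672 to 130835711 per library, and levels are given as CPM (counts scaled to library size) normalized by TMM factors. Smarcb1, the gene deleted in the tumors, was at 119 to 132 CPM in brain and lower in each tumor, with 25.1 to 31.1 CPM in grafts, 7.25 to 23.02 outside the CNS, 7.87 to 14.8 in Myc and 2.52 to 33.3 in SHH tumors. The labels do not name the deleted exons, so reads from the rest of the gene may be counted. The summed level of 8 neuron markers was 5525 to 6671 CPM in brain and 21.6 to 34.2 in grafts. That of 8 markers of neural progenitors, the cells that divide in a brain, was 992 to 1089 CPM in brain and 5832 to 8719 in Myc tumors, where Vim alone made up 5747 to 8470 CPM of it. SHH CNS tumor 1 stood apart with 8889 CPM of 5 oligodendrocyte markers, against 44.7 and 166 in SHH tumors 2 and 3 and 60.2 to 80.6 in the brains. It also had the highest Smarcb1 of all tumors. Healthy brain 1 held 227 CPM of skeletal muscle markers against 6.59 and 6.48 in the other brains. Its fibroblast markers summed to 3926 CPM against 656 and 446, and its erythroid markers to 750 against 408 and 192. The macrophage markers, 8 in number, summed to 5946 to 10002 CPM in grafts, 2394 to 7761 in tumors outside the CNS, 1431 to 4576 in Myc, 286 to 468 in SHH tumors and 65.8 to 93.6 in brain. In bulk tissue, more cells in mitosis and more RNA of a gene per cell cannot be told apart.

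Mitosis genes were lowest in brain and highest in grafts. The median over the 54 members ran from 58.7 to 80.4 CPM in grafts and from 32.2 to 59.9 in extracranial tumors, against 33.8 to 41.3 in Myc, 9.74 to 32.4 in SHH and 9.004 to 15.6 in brain libraries. The group mean was highest in grafts for 52 of 54 members (not Cdc25b and Spc24) and lowest in brain for 52 (not Cdc25b and Ncapd2), and for 50 it followed the order brain, SHH tumors, Myc or extracranial tumors, grafts. A graft was the highest of the 17 libraries for 43 members, and Healthy brain 3 or SHH CNS tumor 1 the lowest for 52. Each graft lay above each of the 14 other libraries for 20 members. Every graft lay above every extracranial tumor, a looser condition, for 11.9% of all genes. Shares of all genes for the counts over the 17 libraries are not given here.

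**Figure D2:**
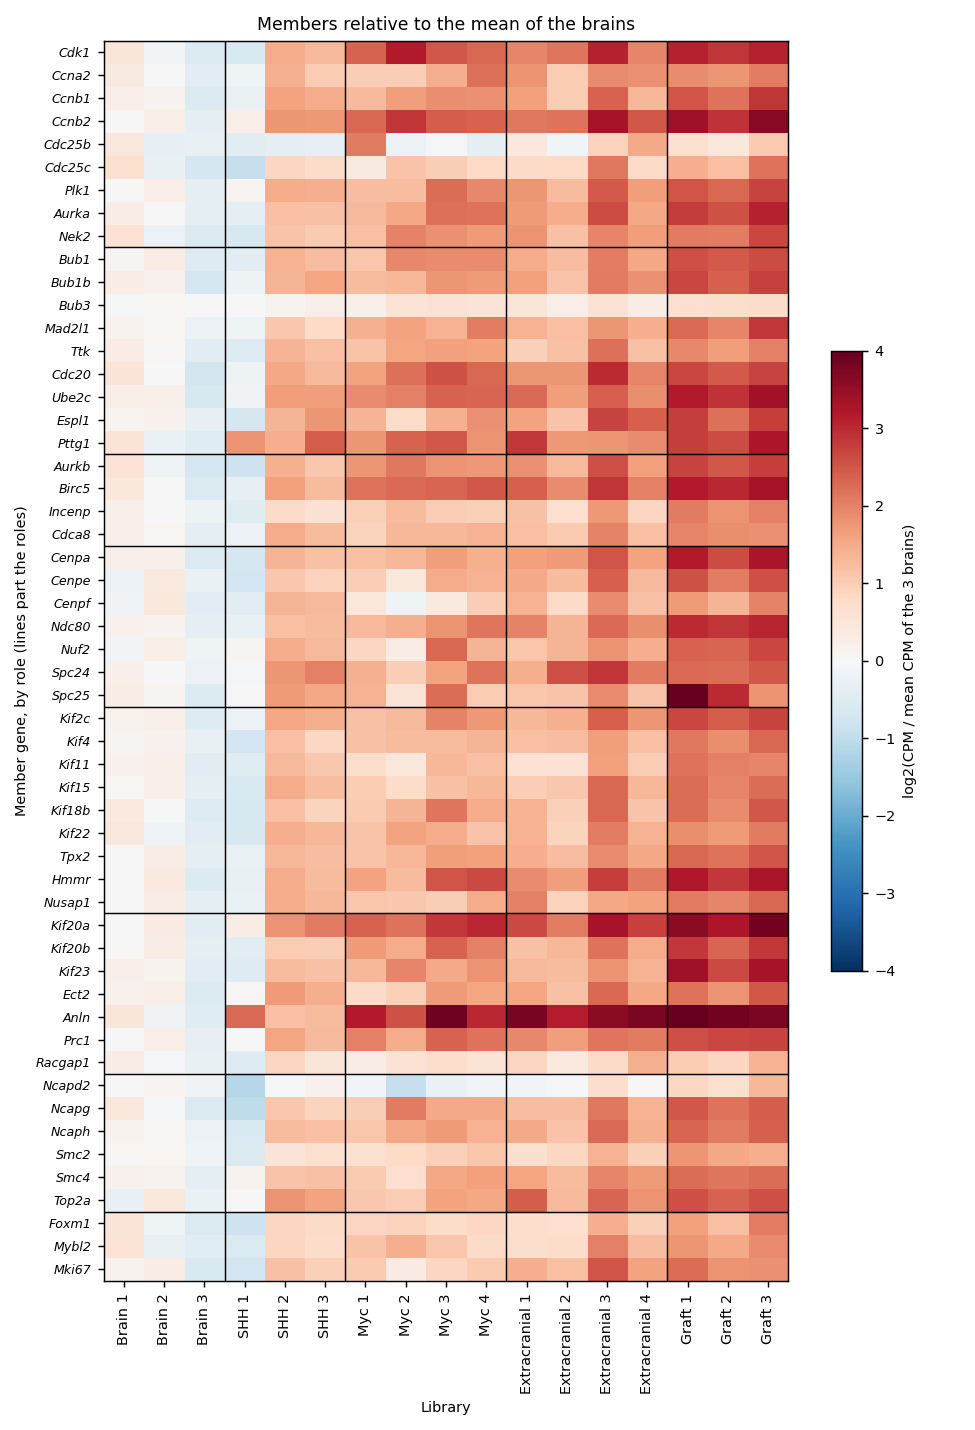
log2 ratio of the CPM of each member in each of the 17 libraries to the mean of the 3 brains, with members grouped by role and libraries by group (red higher, blue lower, scale limited to -4 and 4). SHH CNS tumor 1 lies within the brains' range for 24 members and below every brain for 27, while the 3 grafts and Extracranial tumor 3 are the deepest red columns.

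Against brain (n = 3), the edgeR quasi-likelihood test at a Benjamini-Hochberg adjusted p under 0.05 called 47 of 54 members higher in Myc tumors (n = 4), where it called 25.3% of the 21494 tested genes higher and 26.8% lower. Cdc25b, Cdc25c, Cenpf, Foxm1, Mki67, Ncapd2 and Racgap1 did not pass there. It called 51 higher in extracranial tumors (n = 4, 26.1% of all genes higher and 26.1% lower) and 53 in grafts (n = 3, 24.9% higher and 30.4% lower), leaving out Cdc25b, Cdc25c and Ncapd2 in the first and Cdc25b in the second. In SHH tumors (n = 3) it called 3, Anln, Kif20a and Pttg1, where 2.44% of all genes were called higher and 1.94% lower. No member was called lower in any of these comparisons, nor at an unadjusted p under 0.05, nor with DESeq2 or limma voom. The median log2 fold change over the members was 0.91 in SHH tumors, 1.48 in Myc tumors, 1.65 in extracranial tumors and 2.37 in grafts, beside medians over all tested genes of -0.02, -0.01, 0.05 and -0.16. These 4 comparisons share the 3 brains. Of the calls, 34 of 47 were kept without each library in turn in Myc tumors, 42 of 51 in extracranial tumors and 51 of 53 in grafts. The loss was greatest without Healthy brain 3, the brain with the lowest level for 51 of 54 members (13 calls in Myc and 9 in extracranial tumors). Cdc25c (0.0575 to 0.0694) and Ncapd2 (0.0523 to 0.101) were the calls lost in grafts (adjusted p in brackets), the first without Healthy brain 2 or 3 or Syngeneic graft 3 and the second without Healthy brain 1 or 3 or Syngeneic graft 3.

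**Figure D3:**
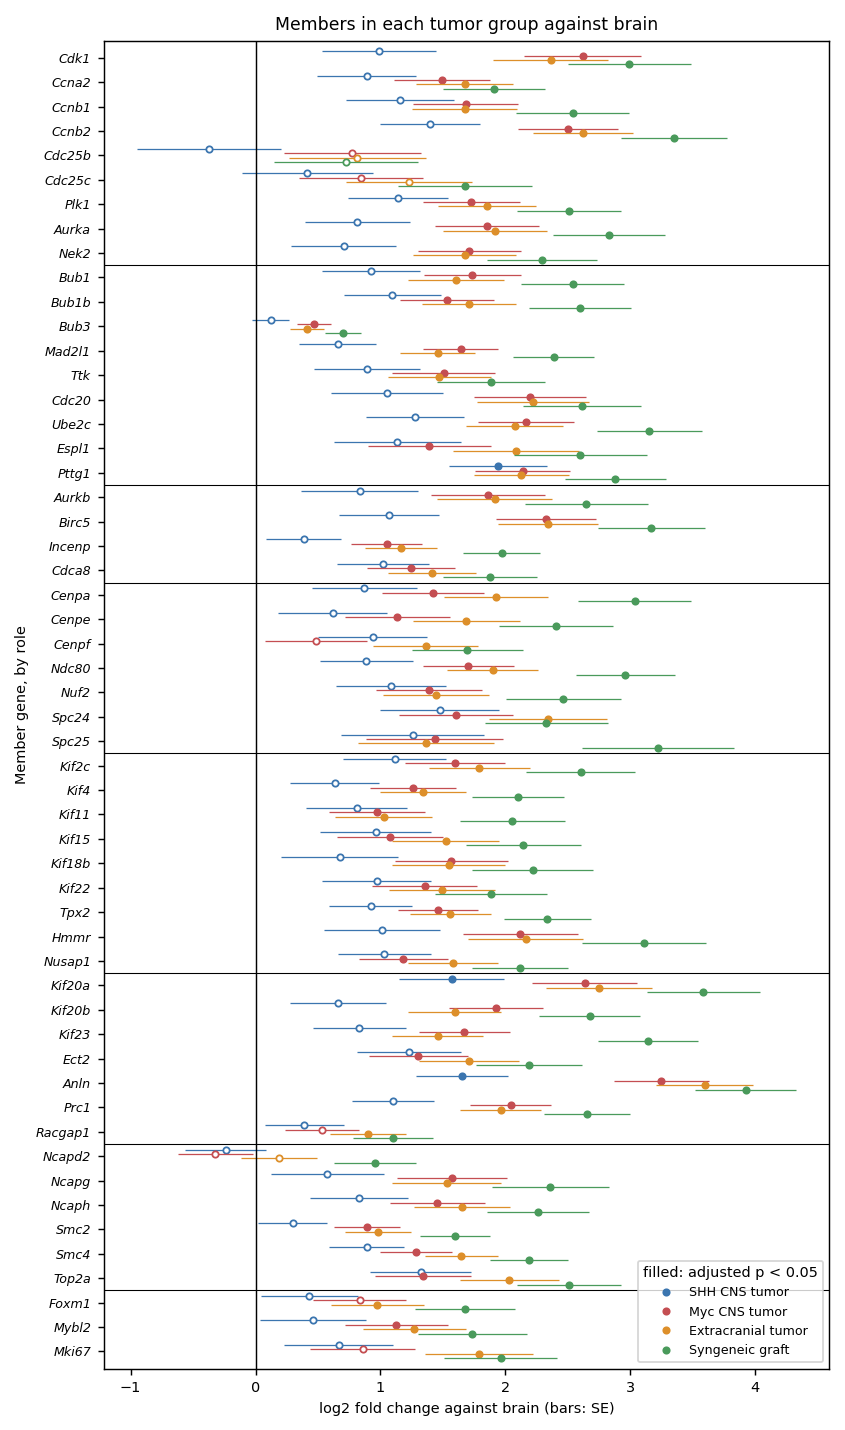
log2 fold change against brain (points, bars are SE) of the 54 members in SHH (blue), Myc (red), extracranial (orange) and graft (green) tumors, filled where the adjusted p was under 0.05. Grafts lie farthest right for most members, and Anln reaches 3.93 while Bub3 stays at 0.70.

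Of the 9 kinases, cyclins and their activators, 7 rose in Myc tumors, 7 in extracranial tumors and 8 in grafts against brain, with median log2 fold changes of 1.71, 1.68 and 2.51 (0.89 in SHH tumors). Cdk1 (ENSMUSG00000019942.13, chromosome 10, minus strand, 69335146 to 69352938, GRCm38 as for all coordinates), the kinase that starts mitosis, stood at 25.6, 16.9 and 12.5 CPM in brain, 12.1, 51.6 and 45.2 in SHH tumors, 93.97, 164, 103 and 89.99 in Myc tumors, 71.6, 81.4, 153 and 70.7 in extracranial tumors and 153, 132 and 153 in grafts. All Myc tumors, extracranial tumors and grafts lay above all brains and SHH tumors. The log2 fold change against brain was 2.62 ± 0.47, adjusted p = 0.000444 in Myc tumors and 2.99 ± 0.49, adjusted p = 0.000202 in grafts, and the Myc mean (113 ± 34.5 CPM) and the graft mean (146 ± 12.4) did not differ beyond their spread (0.37 ± 0.42, adjusted p = 0.626). Ccnb1 (ENSMUSG00000041431.16, chromosome 13, minus strand, 100778650 to 100786570), which encodes cyclin B1, the partner of CDK1, stood at 22.8, 21.03 and 12.9 CPM in brain, 15.8, 58.3 and 52.6 in SHH tumors, 46.8, 60.3, 68.9 and 66.9 in Myc tumors, 58.9, 37.9, 97.05 and 47.7 in extracranial tumors and 107, 85.7 and 137 in grafts. It rose by 2.54 ± 0.45, adjusted p = 0.000372 in grafts and by 1.68 ± 0.42, adjusted p = 0.00441 in Myc tumors on the log2 scale, and the brains and SHH CNS tumor 1 lay below all other libraries. Ccnb2, the second cyclin B, had a larger rise (3.35 ± 0.43, adjusted p = 3.09e-05 in grafts). Plk1, the Polo kinase of spindle assembly and mitotic exit, stood at 8.54, 10.1 and 6.53 CPM in brain, 9.02, 23.6 and 23.1 in SHH tumors, 19.7, 19.8, 39.8 and 32.1 in Myc tumors, 28.7, 20.1, 45.9 and 26.6 in extracranial tumors and 47.9, 41.4 and 54.1 in grafts. Its lowest tumor was SHH CNS tumor 1, within the brains' range, and it rose in Myc tumors (1.73 ± 0.39, adjusted p = 0.00223) and grafts (2.51 ± 0.42, adjusted p = 0.000224). Aurka, the Aurora kinase of the centrosome, rose by 2.83 ± 0.45 and Nek2, a kinase that parts the centrosomes, by 2.29 ± 0.44 in grafts. Ccna2, which encodes cyclin A2, rose by 1.91 ± 0.41 there.

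The CDC25 phosphatases, which remove the inhibitory phosphates from CDK1, departed from this pattern. Cdc25b (ENSMUSG00000027330.16, chromosome 2, plus strand, 131186949 to 131198497) stood at 42.6, 24.8 and 25.3 CPM in brain, 22.8, 24.3 and 24.4 in SHH tumors, 131, 26.5, 30.03 and 23.8 in Myc tumors, 41.02, 28.8, 59.04 and 88.5 in extracranial tumors and 47.99, 41.6 and 63.3 in grafts. Myc CNS tumor 1 held the highest level. The SHH tumors lay below every brain, extracranial tumor and graft, while brain overlapped the Myc and extracranial tumors and grafts. No comparison called it, with a log2 fold change of 0.72 ± 0.58, adjusted p = 0.301 in grafts against brain and -0.38 ± 0.58, adjusted p = 0.744 in SHH tumors. limma voom and the fit of the compared groups alone called all 54 members in grafts against brain, Cdc25b included. Of the 17 libraries left out in turn, Myc CNS tumor 1 alone brought a call, in grafts and extracranial tumors against SHH tumors (adjusted p = 0.0294 and 0.0181). Cdc25c rose in grafts (1.68 ± 0.53, adjusted p = 0.016) and had 1.23 ± 0.50, adjusted p = 0.0529 in extracranial tumors, which passed without Healthy brain 1, SHH CNS tumor 1 or Extracranial tumor 1 (adjusted p = 0.0279 to 0.0499).

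All 9 genes of the spindle checkpoint, anaphase promotion and cohesin cleavage rose in Myc tumors, extracranial tumors and grafts, with median log2 fold changes against brain of 1.64, 1.71 and 2.60 (1.05 in SHH tumors). Bub3 (ENSMUSG00000066979.6, chromosome 7, plus strand, 131560222 to 131571895), whose product brings BUB1 and BUBR1 to kinetochores, was the flattest of them, at 60.6, 66.7 and 63.7 CPM in brain, 62.9, 70.6 and 74.3 in SHH tumors, 73.2, 93.97, 94.5 and 91.4 in Myc tumors, 88.1, 77.3, 95.8 and 77.9 in extracranial tumors and 102, 103 and 105 in grafts. It had the smallest fold change of the called members in each of the 3 groups, 0.47 ± 0.14, adjusted p = 0.0107 in Myc tumors, 0.41 ± 0.14, adjusted p = 0.0208 in extracranial tumors and 0.70 ± 0.15, adjusted p = 0.00114 in grafts. Every graft lay above every other library all the same, and the spread within the grafts was small (104 ± 1.32 CPM). Its call in extracranial tumors was lost without Healthy brain 1 (adjusted p = 0.0677) or 3 (0.061). The partners Bub1 and Bub1b, checkpoint kinase and pseudokinase, rose by 2.54 ± 0.41 and 2.60 ± 0.41 in grafts. Mad2l1, the checkpoint protein that binds CDC20, rose by 2.39 ± 0.32, adjusted p = 4.67e-05, and Ttk, the kinase that starts the checkpoint, by 1.89 ± 0.44, adjusted p = 0.0024.

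Cdc20, the coactivator of the anaphase-promoting complex, stood at 17.5, 12.03 and 7.32 CPM in brain, 10.6, 35.99 and 30.04 in SHH tumors, 37.5, 56.3, 71.4 and 59.97 in Myc tumors, 41.9, 41.5, 97.8 and 47.9 in extracranial tumors and 79.2, 66.9 and 80.04 in grafts. Extracranial tumor 3 held the highest level, and all Myc and extracranial tumors and grafts lay above all brains and SHH tumors. It rose by 2.19 ± 0.45, adjusted p = 0.00117 in Myc tumors and 2.62 ± 0.47, adjusted p = 0.000419 in grafts on the log2 scale. Ube2c, the ubiquitin-conjugating enzyme of that complex, rose by 3.15 ± 0.42, adjusted p = 4.19e-05 in grafts. The 12 core subunits of the complex itself went both ways, from -0.78 to 0.88 on the log2 scale in grafts with a median of -0.15. There edgeR called 1 higher and 1 lower, while 4 were lower and 1 higher in DESeq2 and 6 lower and 2 higher in limma voom. In Myc tumors, with a median of -0.04, edgeR called 2 lower and DESeq2 and limma voom 4 each. This grouping was made after values had been seen. Pttg1, which encodes securin, the inhibitor of separase, stood at 9.97, 5.66 and 4.83 CPM in brain, 23.5, 18.5 and 36.6 in SHH tumors, 23.4, 34.9, 38.3 and 23.6 in Myc tumors, 48.2, 22.6, 23.2 and 25.4 in extracranial tumors and 46.02, 41.2 and 63.5 in grafts. Every tumor lay above every brain, SHH CNS tumor 1 included, and the rise passed in all 4 groups (1.94 ± 0.39, adjusted p = 0.0168 in SHH tumors, 2.88 ± 0.40, adjusted p = 6.37e-05 in grafts). Espl1, which encodes separase, rose by 2.60 ± 0.53, adjusted p = 0.00106 in grafts and by 1.39 ± 0.49, adjusted p = 0.0282 in Myc tumors, the latter lost without Healthy brain 1, 2 or 3 or Myc CNS tumor 4 (adjusted p = 0.0589 to 0.0993).

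The 4 genes of the chromosomal passenger complex, which corrects faulty attachments and later acts at the midzone, rose in Myc tumors, extracranial tumors and grafts (medians 1.55, 1.66 and 2.31 on the log2 scale, 0.93 in SHH tumors). Aurkb (ENSMUSG00000020897.12, chromosome 11, plus strand, 69045647 to 69051664), the kinase of the complex, stood at 14.98, 9.13 and 6.45 CPM in brain, 5.69, 27.1 and 21.6 in SHH tumors, 34.5, 44.3, 35.6 and 33.7 in Myc tumors, 36.5, 24.9, 60.8 and 31.7 in extracranial tumors and 66.1, 56.5 and 69.2 in grafts. SHH CNS tumor 1 had the lowest level of all libraries, and the grafts lay above all Myc tumors. Aurkb rose by 1.86 ± 0.46, adjusted p = 0.00407 in Myc tumors, 1.92 ± 0.46, adjusted p = 0.00335 in extracranial tumors and 2.65 ± 0.49, adjusted p = 0.000511 in grafts. Birc5, which encodes survivin, had the largest rise (3.17 ± 0.43, adjusted p = 4.88e-05 in grafts, to 83.7 ± 9.09 CPM, n = 3, from 9.30 ± 3.10 in brain, n = 3). Incenp, the scaffold of the complex, and Cdca8, which encodes borealin, rose less, by 1.97 ± 0.31 and 1.88 ± 0.37 in grafts.

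Of the 7 kinetochore genes 6 rose in Myc tumors and 7 in extracranial tumors and in grafts, with medians of 1.42, 1.69 and 2.46 (0.94 in SHH tumors). Cenpa, which encodes the histone H3 variant of centromeres, stood at 17.02, 16.4 and 9.72 CPM in brain, 8.94, 37.3 and 32.7 in SHH tumors, 33.3, 35.9, 46.2 and 38.9 in Myc tumors, 45.3, 46.4, 82.6 and 44.1 in extracranial tumors and 129, 88.1 and 137 in grafts. All grafts lay above all other libraries, and the graft rise over brain was 3.04 ± 0.45, adjusted p = 0.000101. The NDC80 complex, which binds microtubules, was covered by Ndc80, Nuf2, Spc24 and Spc25. Ndc80 stood at 6.34, 6.29 and 4.37 CPM in brain, 4.61, 13.1 and 13.7 in SHH tumors, 13.8, 15.6, 19.5 and 24.8 in Myc tumors, 22.4, 14.5, 27.03 and 20.6 in extracranial tumors and 44.5, 41.4 and 46.7 in grafts. It rose by 2.96 ± 0.40, adjusted p = 4.26e-05 in grafts, all 3 of which lay above all other libraries, and by 1.90 ± 0.37, adjusted p = 0.00073 in extracranial tumors. Spc25 (ENSMUSG00000005233.16, chromosome 2, minus strand, 69193895 to 69206194) stood at 10.4, 9.24 and 5.89 CPM in brain, 8.55, 27.8 and 24.8 in SHH tumors, 22.1, 12.5, 40.3 and 17.2 in Myc tumors, 18.5, 18.7, 31.9 and 18.7 in extracranial tumors and 142, 66.97 and 29.4 in grafts. The grafts spread more for it than for any other member, and Syngeneic graft 3 fell below Extracranial tumor 3 and Myc CNS tumor 3. It rose by 3.22 ± 0.61, adjusted p = 0.000602 in grafts, while the calls in Myc and extracranial tumors (adjusted p = 0.04 and 0.0488) were lost without any of 5 and 12 libraries (adjusted p up to 0.138 and 0.16 without Healthy brain 3). Spc24 rose as much in extracranial tumors (2.34 ± 0.47) as in grafts (2.33 ± 0.49), and Nuf2 by 2.46 ± 0.46 in grafts. Cenpe, the kinesin that moves chromosomes to the plate, rose by 2.40 ± 0.46 in grafts. Cenpf, a large kinetochore protein, rose in grafts (1.69 ± 0.44, adjusted p = 0.00536) but not in Myc tumors (0.48 ± 0.41, adjusted p = 0.338), whose levels of 28.1, 18.1, 26.8 and 40.7 CPM overlapped those of brain (18.5, 27.4 and 15.3).

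All 9 spindle kinesins and microtubule proteins rose in Myc tumors, extracranial tumors and grafts (medians 1.36, 1.55 and 2.14, 0.96 in SHH tumors). Hmmr, which encodes a spindle pole protein, had the largest changes and stood at 8.48, 11.3 and 5.85 CPM in brain, 6.90, 24.05 and 20.8 in SHH tumors, 26.1, 20.7, 48.6 and 53.2 in Myc tumors, 31.8, 27.5, 57.99 and 36.03 in extracranial tumors and 78.2, 60.96 and 82.8 in grafts. Brains and SHH CNS tumor 1 lay below all other libraries, and the rise was 2.12 ± 0.46, adjusted p = 0.00178 in Myc tumors and 3.11 ± 0.50, adjusted p = 0.00017 in grafts. Kif11, the kinesin that pushes the spindle poles apart, stood at 33.6, 34.4 and 21.9 CPM in brain, 21.3, 73.1 and 63.04 in SHH tumors, 49.1, 41.1, 75.8 and 69.1 in Myc tumors, 44.5, 45.2, 94.4 and 59.99 in extracranial tumors and 136, 121 and 117 in grafts. Its rise of 2.06 ± 0.42, adjusted p = 0.000977 in grafts set them above all other libraries, and its smaller rises in Myc (0.97 ± 0.39, adjusted p = 0.0463) and extracranial tumors (1.03 ± 0.39, adjusted p = 0.0375) were lost without any of 10 and 7 libraries (adjusted p up to 0.166 and 0.141 without Healthy brain 3). Tpx2, which activates Aurora A and seeds microtubules, rose by 2.34 ± 0.35, adjusted p = 0.000101 in grafts. Kif2c, a kinesin that shortens microtubules, rose by 2.60 ± 0.43, Kif4, a kinesin on chromosome arms, by 2.10 ± 0.37, Kif18b, a kinesin of astral microtubules, by 2.22 ± 0.48 and Kif15, which backs up KIF11, by 2.14 ± 0.46. Kif22, a chromosome-arm kinesin, rose by 1.89 ± 0.45, and Nusap1, which bundles spindle microtubules, by 2.12 ± 0.38.

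The cytokinesis genes held the largest fold changes of the set. Of 7, 6 rose in Myc tumors, 7 in extracranial tumors and 7 in grafts, with medians of 1.93, 1.71 and 2.68 (1.10 in SHH tumors). Anln (ENSMUSG00000036777.8, chromosome 9, minus strand, 22332012 to 22389188), which encodes anillin, a scaffold of the contractile ring, stood at 17.05, 11.03 and 8.66 CPM in brain, 58.3, 27.9 and 29.3 in SHH tumors, 111, 71.4, 184 and 99.9 in Myc tumors, 168, 109, 149.9 and 165 in extracranial tumors and 214, 177 and 168 in grafts. Every tumor lay above every brain, and among SHH tumors the order was turned, with SHH CNS tumor 1 highest. It rose by 3.25 ± 0.38, adjusted p = 2.09e-05 in Myc tumors, 3.60 ± 0.39, adjusted p = 1.03e-05 in extracranial tumors and 3.93 ± 0.40, adjusted p = 6.56e-06 in grafts. Anillin is also known from myelin, and Anln was the only member with its highest SHH level in the library with 8889 CPM of oligodendrocyte markers, whose part in that value was not tested. Kif20a, the midzone kinesin that carries the passenger complex, stood at 10.2, 12.5 and 7.33 CPM in brain, 12.3, 34.5 and 42.5 in SHH tumors, 51.5, 45.4, 70.4 and 81.9 in Myc tumors, 63.02, 41.6, 98.9 and 66.01 in extracranial tumors and 122, 93.4 and 146 in grafts. Its rises were next in size, 2.64 ± 0.42, adjusted p = 0.000192 in Myc tumors and 3.59 ± 0.45, adjusted p = 2.83e-05 in grafts, and SHH CNS tumor 1 lay within the brains' range.

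Kif23 (ENSMUSG00000032254.10, chromosome 9, minus strand, 61915905 to 61946774), a kinesin of the centralspindlin complex, stood at 16.2, 15.6 and 10.4 CPM in brain, 9.76, 33.6 and 31.8 in SHH tumors, 35.4, 54.7, 40.7 and 48.5 in Myc tumors, 34.7, 33.6, 49.3 and 37.1 in extracranial tumors and 146, 88.1 and 139 in grafts. The grafts lay above all other libraries and the Myc and extracranial tumors overlapped. It rose by 3.14 ± 0.40, adjusted p = 3.23e-05 in grafts and by 1.46 ± 0.36, adjusted p = 0.00413 in extracranial tumors. Its partner in centralspindlin, Racgap1, changed far less, with 1.10 ± 0.32, adjusted p = 0.00947 in grafts, 0.90 ± 0.30, adjusted p = 0.022 in extracranial tumors and 0.53 ± 0.30, adjusted p = 0.149 in Myc tumors, where it did not pass. The extracranial call of Racgap1 was lost without Extracranial tumor 4, which held 143 CPM (adjusted p = 0.0811), or without Healthy brain 2 or 3 (0.0677 and 0.0938). Ect2, the exchange factor that switches on RhoA at the cleavage site, rose by 2.19 ± 0.43 in grafts, Prc1, which bundles midzone microtubules, by 2.65 ± 0.35, adjusted p = 3.66e-05, and Kif20b, a kinesin of late cytokinesis, by 2.68 ± 0.40, adjusted p = 0.000111.

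Condensin compacts chromosomes and topoisomerase II untangles them. Of these 6 genes 5 rose in Myc tumors, 5 in extracranial tumors and 6 in grafts, with medians of 1.31, 1.59 and 2.23 (0.70 in SHH tumors). Top2a (ENSMUSG00000020914.17, chromosome 11, minus strand, 98992943 to 99024189) stood at 51.1, 85.2 and 51.5 CPM in brain, 61.9, 218 and 190.1 in SHH tumors, 133, 127, 191 and 182 in Myc tumors, 334, 155, 316 and 219 in extracranial tumors and 377, 321 and 372 in grafts. Every graft lay above every brain, SHH tumor and Myc tumor, while Extracranial tumor 1 lay above Syngeneic graft 2. Its log2 fold changes were 1.34 ± 0.38, adjusted p = 0.0101 in Myc tumors, 2.03 ± 0.40, adjusted p = 0.000807 in extracranial tumors and 2.51 ± 0.42, adjusted p = 0.000233 in grafts. Ncapd2 (ENSMUSG00000038252.13, chromosome 6, minus strand, 125168007 to 125191701), a condensin I subunit, was the exception at 96.5, 102 and 86.5 CPM in brain, 42.9, 91.7 and 107 in SHH tumors, 87.1, 50.3, 78.7 and 87.4 in Myc tumors, 87.9, 92.2, 154 and 98.9 in extracranial tumors and 167, 148 and 238 in grafts. The brains were as high as most tumors, SHH CNS tumor 1 and Myc CNS tumor 2 were lowest, and the grafts were above all but Extracranial tumor 3. It rose in grafts (0.96 ± 0.33, adjusted p = 0.0227) and did not pass in SHH (-0.24 ± 0.32, adjusted p = 0.707), Myc (-0.32 ± 0.30, adjusted p = 0.386) or extracranial tumors (0.19 ± 0.30, adjusted p = 0.618). The other condensin I subunits, Ncapg and Ncaph, rose by 2.36 ± 0.47 and 2.27 ± 0.41 in grafts, and the ATPases Smc2 and Smc4 by 1.60 ± 0.28 and 2.19 ± 0.31. The 3 subunits particular to condensin II, a grouping made after values had been seen, had a median of 0.53 in grafts, with 2 called higher. The 8 genes of cohesin and its regulators, grouped after values had been seen, had a median of 0.34 (3 higher and 1 lower).

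The transcription factors that switch this program on, and the proliferation marker Ki-67, had smaller medians than the set as a whole, with medians over 3 genes of 0.86 in Myc tumors, 1.27 in extracranial tumors and 1.74 in grafts (0.46 in SHH tumors). Foxm1 stood at 35.1, 21.7 and 16.4 CPM in brain, 13.6, 43.9 and 41.1 in SHH tumors, 44.7, 45.9, 40.4 and 43.1 in Myc tumors, 39.8, 38.8, 66.7 and 46.8 in extracranial tumors and 76.6, 56.5 and 101 in grafts. The 4 Myc tumors were close together and above all brains, and the grafts above all but Extracranial tumor 3. It rose in grafts (1.68 ± 0.40, adjusted p = 0.0029) and in extracranial tumors (0.98 ± 0.37, adjusted p = 0.0398, lost without Healthy brain 2 or 3, Extracranial tumor 3 or 4, Myc CNS tumor 1 or Syngeneic graft 1, with adjusted p = 0.0507 to 0.159). In Myc tumors it did not pass (0.83 ± 0.37, adjusted p = 0.0721), but did without Healthy brain 1 (0.0307) or SHH CNS tumor 1 (0.0232). Mybl2, which encodes B-MYB, stood at 10.2, 5.64 and 5.15 CPM in brain, 4.69, 12.6 and 11.6 in SHH tumors, 15.3, 18.9, 15.1 and 11.9 in Myc tumors, 11.5, 11.5, 28.1 and 16.3 in extracranial tumors and 23.8, 20.03 and 25.9 in grafts. It rose by 1.74 ± 0.44, adjusted p = 0.00415 in grafts, above all brains, and by 1.13 ± 0.41, adjusted p = 0.032 in Myc tumors, the latter lost without Healthy brain 2 or 3 or Myc CNS tumor 2 or 3 (adjusted p = 0.0508 to 0.123). The 4 MuvB core genes, also grouped after values had been seen, had a median of 0.43 in grafts, with 1 higher and 1 lower. Mki67 (ENSMUSG00000031004.8, chromosome 7, minus strand, 135689784 to 135716361), which encodes Ki-67, a coat of mitotic chromosomes, stood at 71.6, 79.99 and 42.4 CPM in brain, 37.7, 144 and 125 in SHH tumors, 135, 80.8, 118 and 135 in Myc tumors, 176, 150.3, 370.1 and 198 in extracranial tumors and 305, 224 and 229 in grafts. Extracranial tumor 3 was the highest library, and every extracranial tumor lay above every Myc tumor. Mki67 rose in extracranial tumors (1.79 ± 0.43, adjusted p = 0.0035) and grafts (1.96 ± 0.45, adjusted p = 0.00239), while Myc tumors (0.86 ± 0.42, adjusted p = 0.0984) passed, of the 17 libraries left out in turn, without SHH CNS tumor 1 (0.0379).

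**Figure D4:**
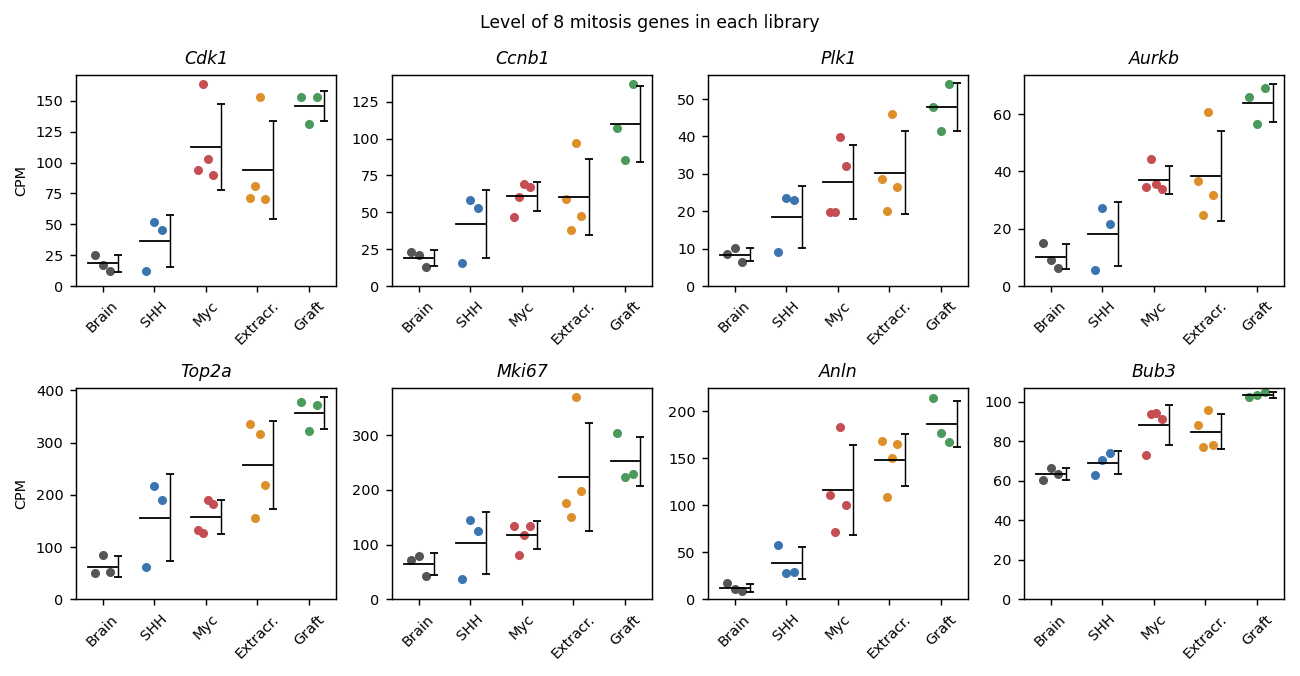
CPM of 8 members in each library (points), with group means (horizontal lines) and SD (bars), on linear axes that start at 0. The grafts lie above all other libraries for Bub3, SHH CNS tumor 1 is the low blue point in every panel but Anln, and Bub3 varies least.

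SHH tumors were the group closest to brain, and their values rested on which library was read. SHH CNS tumor 1 lay below SHH tumors 2 and 3 for 52 of 54 members (not Anln and Pttg1), below every brain for 27, within the brains' range for 24 and above every brain for 3. SHH tumors 2 and 3 lay above every brain for 52 members, a count for which the share of all genes is not given here. All 3 SHH tumors lay above every brain for 3 members and for 15.7% of all genes. Without SHH CNS tumor 1, edgeR called 25 members higher against brain (2.30% of all genes were then called higher) with a median log2 fold change of 1.28, against 3 and 0.91 with it. None of the 3 calls was kept without each library. Pttg1 was lost without Healthy brain 2 or 3 or SHH CNS tumor 3 (adjusted p = 0.0815 to 0.0957), Anln without those or SHH CNS tumor 1 (0.0558 to 0.127), and Kif20a without any of 12 libraries (0.0504 to 0.198). At an unadjusted p under 0.05 edgeR had 31 members higher, and the share of all genes at that limit is not given here. DESeq2 called 11 (7.06% of all genes) and limma voom with quality weights 51 (15.1%). The quality weights that voom gave the SHH tumors were 0.495, 3.14 and 0.409, and those of the brains 0.413, 2.56 and 5.33. The summed oligodendrocyte markers of 8889 CPM, astrocyte markers of 1819.7 CPM and Smarcb1 of 33.3 CPM in SHH CNS tumor 1 moved with its low mitosis genes, and their part was not tested.

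Compared with SHH tumors, Myc tumors were higher in 9 members (Anln, Birc5, Ccnb2, Cdc20, Cdk1, Kif20a, Kif20b, Mad2l1 and Prc1, with 19.0% of all genes higher and 21.9% lower) and extracranial tumors in 13 (Anln, Aurka, Birc5, Ccnb2, Cdc20, Cdk1, Incenp, Kif20a, Mad2l1, Mki67, Ndc80, Prc1 and Smc4, with 18.6% and 19.7%). Both shares of members lay near or only just above the share of all genes. Grafts were higher in 44 (20.4% and 25.8%). The medians were 0.59, 0.78 and 1.45. These comparisons share the SHH tumors. Cdk1 was 1.63 ± 0.45, adjusted p = 0.0103 in Myc and 1.38 ± 0.44, adjusted p = 0.0246 in extracranial tumors, and Anln 1.60 ± 0.35, adjusted p = 0.00299 and 1.94 ± 0.36, adjusted p = 0.000981. The Myc calls of Cdk1 and Anln were kept in each alternative run, and of the extracranial calls Anln alone was. SHH tumors 2 and 3 lay within or above the range of the Myc tumors for 30 members. Without Myc CNS tumor 4 the Myc calls fell to 5. Without SHH CNS tumor 1 the calls fell to 3 in Myc tumors, 2 in extracranial tumors and 31 in grafts, with medians of 0.23, 0.43 and 1.06. The extracranial calls fell to 2 without Extracranial tumor 3 as well, and to between 4 and 8 without 10 other libraries. The graft rise over SHH tumors was largest for Kif23 (2.31 ± 0.39, adjusted p = 0.00041) and Anln (2.27 ± 0.38, adjusted p = 0.000369) and smallest for Bub3 (0.58 ± 0.15, adjusted p = 0.00518).

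No member passed between Myc and extracranial tumors. edgeR, DESeq2 and limma voom each called 0 of 54, beside 0.0% of all genes higher and 0.0186% lower in edgeR, and 2 members (Cenpf and Mki67) had an unadjusted p under 0.05. The median log2 fold change of extracranial over Myc tumors was 0.11. The largest differences were Mki67 (0.93 ± 0.38, adjusted p = 0.259) and Cenpf (0.88 ± 0.38, adjusted p = 0.276), followed by Spc24 (0.73 ± 0.41) and Top2a (0.70 ± 0.34), and the lowest Kif20b (-0.33 ± 0.33, adjusted p = 0.662). Extracranial means were above Myc means for 39 members. Extracranial tumor 3 was the highest of its group for 48 members. It had the lowest summed progenitor markers (316 CPM, Vim 277 of it) and macrophage markers (2394 CPM) of its group. The macrophage genes went both ways, since Itgam and Csf1r were lowest there but Adgre1, C1qa, Mrc1 and Lyz2 in Extracranial tumor 4. Its summed T and NK cell markers were the highest (48.7 CPM), of which Cd4 made up 29.5. Cd3e, Cd3g, Cd8a and Cd2 were higher in Extracranial tumor 1. The part of these cells in the level of Extracranial tumor 3 was not tested.

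The grafts stood above the Myc and extracranial tumors in most members, but few of these differences passed. Against Myc tumors edgeR called Cenpa (1.61 ± 0.39, adjusted p = 0.0317), Kif23 (1.47 ± 0.35, adjusted p = 0.0292), Ncapd2 (1.28 ± 0.30, adjusted p = 0.0293) and Ndc80 (1.26 ± 0.34, adjusted p = 0.0448) higher, where 3.12% of all genes were called higher and 2.88% lower. Against extracranial tumors it called Kif23 alone (1.69 ± 0.35, adjusted p = 0.0246), where 2.16% were higher and 2.62% lower. None of these calls was kept without each library. All 4 were lost against Myc tumors without Syngeneic graft 1 (adjusted p = 0.0911 to 0.147), 2 (0.0599 to 0.122) or 3 (0.101 to 0.133) or Myc CNS tumor 3 (0.0506 to 0.0821), and 3 of them without Myc CNS tumor 1, 2 or 4. The call of Kif23 against extracranial tumors was lost without any 1 graft (adjusted p = 0.0567 to 0.0996). Without SHH CNS tumor 1, 17 members were called against Myc tumors and 9 against extracranial tumors. That library is in neither of the compared groups but enters the shared fit and the filter on low counts. The shares of all genes called in that fit are not given here, so these counts have no background to be read against. The medians over members were 0.85 and 0.70, and over all genes -0.11 and -0.13. Every graft lay above every Myc tumor for 45 of 54 members (14.1% of all genes) and above every extracranial tumor for 22 (11.9% of all genes).

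With Extracranial tumor 3, the highest of its group for 48 members, set aside, every graft lay above every Myc and extracranial tumor for 38 members. Shares of all genes are not given here for this count or for the next ones. At an unadjusted p under 0.05, 33 members were higher in grafts than in Myc tumors and 24 than in extracranial tumors, beside the 4 and 1 that passed after adjustment. Spc25 had the largest difference from both (1.79 ± 0.53, adjusted p = 0.0578 and 1.86 ± 0.53, adjusted p = 0.0561) and did not pass. The smallest were Cdc25b (-0.05 ± 0.54 against Myc and -0.09 ± 0.54 against extracranial tumors) and, against extracranial tumors, Spc24 (-0.01 ± 0.44) and Mki67 (0.17 ± 0.41). Markers of other cells moved with the grafts. The summed level of 7 T and NK cell markers was 76.9 to 157 CPM in grafts, 1.93 to 13.6 in Myc and 9.20 to 48.7 in extracranial tumors, and macrophage markers were 5946 to 10002 CPM. The 6 endothelial markers summed to 383 to 469 CPM in grafts, 165 to 337 in Myc and 98.2 to 359 in extracranial tumors, with every graft above every other tumor. Erythroid markers were 36.7 to 153 CPM in grafts against 2.84 to 70.04 and 5.64 to 32.3, with overlap, and fibroblast markers were lower at 2134 to 2458 CPM against 3992 to 15855 and 5230.3 to 10911. Within grafts, Syngeneic graft 2 was lowest for 47 members, while Syngeneic graft 3 was highest for 42. Syngeneic graft 2 had the highest summed T and NK cell markers. Of that list, Ncr1 was lowest there (3.15 CPM against 7.82 and 7.71) and Cd4 was higher in Syngeneic graft 3. It also had the lowest summed macrophage markers (5946 CPM against 6425 in Syngeneic graft 3). Adgre1 and Ptprc were lowest in Syngeneic graft 3 (360 and 358 CPM against 405 and 418 in Syngeneic graft 2). The part of these cells in the graft levels was not tested.

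The spread between libraries differed between the groups. The median coefficient of variation over members was 26.5% in brain, 52.3% in SHH tumors, 23.0% in Myc tumors, 33.8% in extracranial tumors and 13.3% in grafts. Per kilobase of annotated exon, the scale on which genes can be set beside each other, the highest group means in brain were Ncapd2 (15.1 CPM per kb), Ccna2 (9.23), Bub3 (9.09) and Smc4 (9.03). In grafts the highest were Ccnb2 (47.2 CPM per kb), Smc4 (41.2), Cdc20 (40.3) and Top2a (39.6), and Bub3 (14.8) and Ncapd2 (29.4) stood lower in that order. Ccnb2 was at 4.63 CPM per kb in brain. The lowest were Ndc80 (0.873) and Kif15 (1.02) in brain and Cdc25c (3.68), Cenpf (4.27) and Kif15 (4.53) in grafts. Exon length joins the exons of all annotated transcripts, so genes with long rare exons read low. Some levels are uncertain for another reason, since 14 members share exon bases with a gene on the other strand and the strand setting of the counting is not given in the sources used here. The shared part was largest for Kif20a (29.3% of its exon bases, with Cdc23), Ube2c (22.8%, with Tnnc2, a muscle gene) and Kif4 (15.1%, with Pdzd11). Healthy brain 1, which held 227 CPM of muscle markers, had Ube2c at 12.97 CPM against 12.3 and 6.94 in the other brains, and the part of Tnnc2 reads in it was not tested.

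Beside the set, a list of 98 other mitosis genes and one of 40 DNA replication genes were measured. Of the other mitosis genes 46 were higher and 7 lower in Myc tumors, 59 and 9 in extracranial tumors and 63 and 6 in grafts against brain, with medians of 0.83, 1.04 and 1.45. In SHH tumors edgeR called 0 of them (26 at an unadjusted p under 0.05, 21 of these higher, with DESeq2 calling 8 higher and 3 lower and limma voom 52 and 5) and the median was 0.46. The largest rises were Wee1, the kinase that inhibits CDK1, in Myc tumors (4.11 ± 0.37, adjusted p = 3.57e-06) and grafts (4.02 ± 0.38, adjusted p = 3.61e-06), and Cenpp, a centromere protein, in extracranial tumors (4.14 ± 0.56, adjusted p = 5.22e-05). The lowest were Zwint, a kinetochore protein that neurons also express, in extracranial tumors (-2.26 ± 0.45, adjusted p = 0.000989) and grafts (-1.38 ± 0.49, adjusted p = 0.0268), Ckap5, a microtubule polymerase, in Myc tumors (-1.41 ± 0.17, adjusted p = 2.04e-05), and the cohesin regulator Pds5b in grafts (-1.16 ± 0.28, adjusted p = 0.00299). Of the replication genes 29 were higher and none lower with edgeR in Myc tumors (1 lower at an unadjusted p under 0.05 and 1 with DESeq2 and with limma voom), 32 higher and 1 lower in extracranial tumors, and 35 higher in grafts. Their medians were 1.43, 1.30 and 2.06, beside 1.48, 1.65 and 2.37 for the 54 members. In SHH tumors 1 replication gene was called higher and the median was 0.49. Against SHH tumors 20 of 40 replication genes were higher in Myc tumors and 21 in extracranial tumors, a larger share than of the members (9 and 13 of 54), a difference that was not tested.

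**Figure D5:**
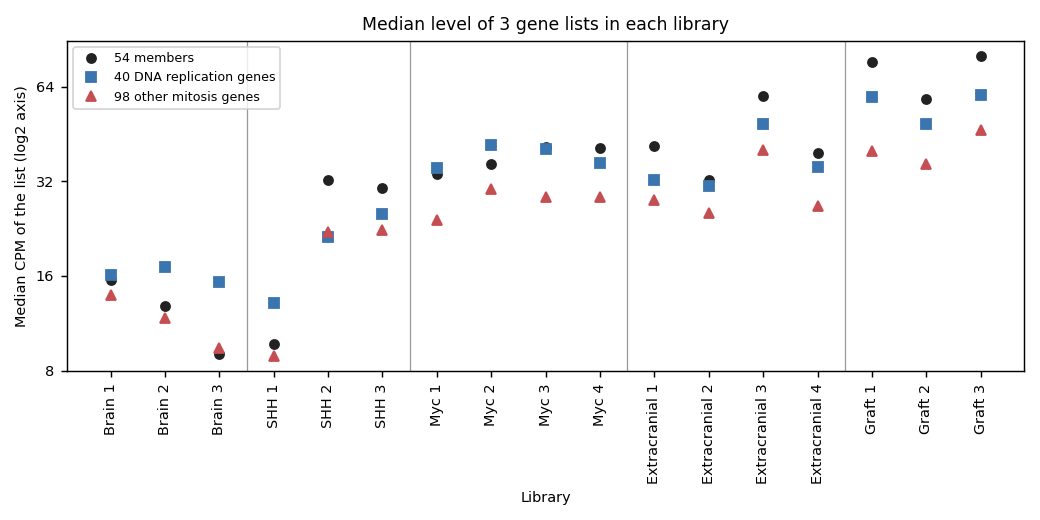
Median CPM over the 54 members (circles), 40 DNA replication genes (squares) and 98 other mitosis genes (triangles) in each of the 17 libraries, on a log2 axis. The 3 lists are low in brain and SHH CNS tumor 1 and high in grafts and Extracranial tumor 3, and the members have the widest range, up to 80.4 CPM.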

How the data were processed

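Poly(A) RNA of 14 tumors and 3 brains was sequenced from stranded libraries, per the labels' protocols. The authors aligned the reads with STAR 2.5.3a to mm10, per the submitters' processing notes, and deposited raw counts per Ensembl gene for each library. The counting tool, its strand setting and the annotation release are not given in the sources used here. Members and lists were chosen with earlier results of these data known.

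Genes were taken through filterByExpr (minimum count 10), which kept 21494 of 50600 genes with 99.96% of the counts. All 17 libraries were fitted together in edgeR 4.0.16 (R 4.3.3) with TMM factors, 1 mean per group and the robust quasi-likelihood test. The p-values were adjusted by Benjamini-Hochberg over all genes tested, with a threshold of 0.05. Fold changes are log2 values ± SE, and group levels are mean CPM ± SD. The script was tested on simulated data. Symbols, coordinates and exon lengths came from GRCm38, to which 50376 IDs matched without their version number. Library totals ran from 18685672 to 130835711 counts, and replicates differed beyond sampling noise (chi-square per gene of 71.35 to 969.4), so none was merged.

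Alternatives were RLE factors, no filter on low counts, DESeq2 1.42.0, limma voom 3.58.1 with quality weights, the compared groups alone, the library number as a block, the fit without Healthy brain 1 and SHH CNS tumor 1, and the fit without each library. Any member could be named. Per comparison, up to 4 per role group were named by size of change, and Cdk1, Ccnb1, Plk1, Aurkb, Top2a, Mki67, Bub3, Foxm1 and Mybl2 always. Of the other mitosis genes the 2 highest and 2 lowest could be named. Promoters were searched for motifs on both strands in Python 3.11.15.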

Additional observations from a re-analysis of the deposited data

Results flagged for a closer look

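Of 108 checks of a member in the Myc or extracranial group (4 libraries each), 20 had a library whose gap to the nearest other exceeded Dixon's 95% critical value for its share of the range. Chance gives about 1 in 20 such groups, and the members are not independent of each other. In 12 of the 20 the library was Extracranial tumor 3, high each time. Cdk1 stood there at 153.5 CPM (70.7 to 81.4 in the other extracranial tumors), Cdc25c at 24.2 (9.55 to 9.83), Aurka at 39.6 (18.3 to 21.2), Ttk at 39.5 (16.7 to 19.4) and Cdc20 at 97.8 (41.5 to 47.9). Among the passenger, kinetochore and chromosome genes it held Cdca8 at 54.7 CPM (28.6 to 31.9), Cenpa at 82.6 (44.1 to 46.4), Cenpe at 77.1 (35.3 to 42.2), Spc25 at 31.9 (18.5 to 18.7), Kif4 at 33.1 (24.2 to 24.9), Ncapd2 at 154.3 (87.9 to 98.9) and Ncapg at 48.1 (26.2 to 29.3). Extracranial tumor 2 was low for Ccna2, at 76.1 CPM (131.6 to 140.1 in the others), and Extracranial tumor 1 was high for Pttg1, at 48.2 (22.6 to 25.4).

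Myc CNS tumor 1 was high for Cdc25b, at 131.1 CPM (23.8 to 30.0296 in the other Myc tumors), and low for Bub1 at 20.4 (34.6 to 35.5), Bub3 at 73.2 (91.4 to 94.5), Ttk at 18.8 (25.8 to 26.8) and Cdca8 at 25.9 (34.5 to 35.9). Myc CNS tumor 2 was high for Incenp, at 71.2 CPM (56.6 to 59.0378).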

How the results depend on the processing

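Against brain, the counts of members higher in Myc tumors (34 to 49 without each library), extracranial tumors (42 to 52) and grafts (51 to 53), and in grafts against SHH tumors (31 to 47), stayed within 1.5 times in every alternative run, and none was called between extracranial and Myc tumors. The 3 calls in SHH tumors against brain became 11 with DESeq2, 51 with limma voom, 1 with the compared groups only, 16 without Healthy brain 1 and SHH CNS tumor 1, and 0 to 25 without each library. The 9 of Myc against SHH tumors became 5 with no filter on low counts, 2 with the compared groups only, 3 without both doubted libraries and 3 to 13 without each library. The 13 of extracranial against SHH tumors became 6 with RLE factors, 4 with no filter, 2 with limma voom, 1 with the compared groups only, 2 without both libraries and 2 to 15 without each library. The 4 of grafts against Myc tumors became 12 with DESeq2, 17 with limma voom, 20 with the compared groups only, 11 without both libraries and 0 to 17 without each library. The 1 of grafts against extracranial tumors became 9 with DESeq2, 10 with limma voom, 4 without both libraries and 0 to 9 without each library. The cause of these differences was not tested. Apart from those given above for SHH tumors against brain, the shares of all genes called in these runs are not given here. Of 12960 values of single members under an alternative, 12202 kept direction and side of the threshold, 504 lost a call, 254 gained one and 0 reversed.

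With the library number as a replicate block, the 13 calls of extracranial against SHH tumors became 5 and the 4 of grafts against Myc tumors became 0, and the other counts stayed within 1.5 times. The labels do not say that the numbers pair the libraries. Of 31 same-number pairs 2 had a correlation of deviations over 0.1 (-0.18 to 0.14). Pairs with different numbers ran from -0.15 to 0.18, so these correlations cannot decide whether libraries were paired. The lowest count of a member in a library was 117, and the effect of depth on the calls was not tested.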
